A study of Homo sapiens with 18 samples.

Results

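Histone H1.5 was mapped in HL-60/S4 cells by 2 chromatin immunoprecipitation protocols, xChIP and xxChIP, and the 2 resulting lists of enriched regions (peaks) were compared here in windows of 100 kb. The comparison rests on 6 of the 18 samples of the series, 3 for each protocol. All windows of chromosomes 1 to 22 and X with 50% or more known sequence were taken, which gave 28422 of 30376 windows. The value of a window was the share of its known bases covered by each list, and xChIP minus xxChIP in percentage points. The 6 longest runs of windows toward xChIP, gene-dense stretches of chromosomes 7 and 12 that include part of the region deleted in Williams syndrome, were covered to between 46.9% and 72.4% by xChIP peaks and to 4.36% or less by xxChIP peaks. With peaks of 20 kb or more left out of both lists, the differences of 5 of these 6 runs fell under 20 points, as did those of 5 of the 6 longest runs toward xxChIP. The latter were AT-rich stretches with few or no protein-coding genes, and zinc finger genes of chromosome 19 also leaned toward xxChIP. Of 86 cytosolic ribosomal protein genes, 37.2% were 20 points or more higher in xChIP, compared with 16.8% of all protein-coding genes. Of keratin and olfactory receptor genes, 21.5% and 21.3% were as much higher in xxChIP, compared with 5.59% of all and 7.20% of genes under 10 kb. The median difference in each of these 3 groups was 0.

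HL-60/S4 is an established line of human myeloid leukemia cells, used here undifferentiated and without treatment in all 6 samples. All cells were fixed with formaldehyde and permeabilized. For xChIP the chromatin was sonicated before it met the anti-H1.5 antibody, whereas for xxChIP the antibody was bound inside the permeabilized cells and fixed there by a second round of formaldehyde, and only then was the chromatin sonicated. The deposited lists merge the 3 replicates of each protocol and hold positions only, so the read depth is unknown and no spread between replicates or test can be given.

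Linker histones of the H1 family bind the nucleosome where DNA enters and leaves it, together with the DNA that links it to the next nucleosome, and they help chromatin to fold into compact fibres. Human somatic cells carry several H1 variants, which differ mainly in their tails, and H1.5 has been associated with condensed chromatin. A peak in xChIP requires that the H1.5 epitope can be bound in sonicated fragments, and a peak in xxChIP requires that it can be reached by an antibody in the fixed nucleus. The protocols also differ in sonication and in the precipitation step, so access to the epitope and these steps cannot be told apart in the values below.

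The following stretches are examples of DNA under the peaks of each protocol, and 3 stretches do not stand for all peaks. Each is 200 bases of the reference GRCh37 (hg19), printed 5′ to 3′ on the strand given, and capitals mark the dinucleotide CG, which reads CG on both strands. The first 2 lie under xChIP H1.5 peaks in windows among those with the largest differences toward xChIP, each at the middle of the part of the peak inside its window.
Window at TFRC (chr3:195849901-195850100, plus strand): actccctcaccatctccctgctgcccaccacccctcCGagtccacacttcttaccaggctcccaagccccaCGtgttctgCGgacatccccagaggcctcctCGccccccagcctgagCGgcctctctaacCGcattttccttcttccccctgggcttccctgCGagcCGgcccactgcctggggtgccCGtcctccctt
Window at NCF1B (chr7:72649901-72650100, plus strand): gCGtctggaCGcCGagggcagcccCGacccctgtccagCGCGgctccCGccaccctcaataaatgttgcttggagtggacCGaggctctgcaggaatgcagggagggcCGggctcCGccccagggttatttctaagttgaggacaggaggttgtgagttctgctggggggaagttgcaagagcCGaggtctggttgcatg
The stretch at TFRC lies between genes and that at NCF1B in a pseudogene copy of the NADPH oxidase gene NCF1, outside protein-coding exons. A stretch taken in the same way under an xxChIP H1.5 peak, in a window among those with the largest differences toward xxChIP, follows.
Window on chromosome 1 (chr1:142715215-142715414, plus strand): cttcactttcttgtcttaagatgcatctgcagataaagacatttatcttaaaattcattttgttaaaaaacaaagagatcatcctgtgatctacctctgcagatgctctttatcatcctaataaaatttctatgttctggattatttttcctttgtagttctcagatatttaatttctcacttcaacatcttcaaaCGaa
This stretch lies in long noncoding RNA genes. The xChIP stretches hold 9 and 11 CG and have 66.5% and 63.0% GC, and the xxChIP stretch holds 1 CG and has 30.0% GC. Of 14178079 such stretches over the same chromosomes, 71.4% hold a CG, with a mean of 1.96 CG and 40.9% GC. The xChIP stretches are GC-richer than the windows higher in xChIP, whose mean was 43.9%. The xxChIP stretch is GC-poorer than its own window (37.5%) and than the windows higher in xxChIP, whose mean was 38.7%.

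The 200 bases upstream of GTF2IRD2B, which encodes a protein related to the transcription factor TFII-I, represent the genes of 30 kb or more with the largest difference toward xChIP.
GTF2IRD2B (chr7:74508164-74508363, plus strand): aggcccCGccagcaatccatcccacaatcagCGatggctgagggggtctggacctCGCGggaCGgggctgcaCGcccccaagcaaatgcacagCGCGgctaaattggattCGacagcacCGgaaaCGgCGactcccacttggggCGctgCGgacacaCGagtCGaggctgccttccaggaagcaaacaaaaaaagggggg
The corresponding bases of ZNF726 and ZNF729, which encode zinc finger proteins, and of ACSM2A, a mitochondrial medium-chain acyl-CoA synthetase gene, represent the genes of 30 kb or more with the largest difference toward xxChIP.
ZNF726 (chr19:24097478-24097677, plus strand): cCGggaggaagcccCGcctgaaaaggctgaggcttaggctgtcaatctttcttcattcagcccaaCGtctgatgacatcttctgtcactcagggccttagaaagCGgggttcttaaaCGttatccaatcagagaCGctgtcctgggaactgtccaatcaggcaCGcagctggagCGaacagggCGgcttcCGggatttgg
ZNF729 (chr19:22469043-22469242, plus strand): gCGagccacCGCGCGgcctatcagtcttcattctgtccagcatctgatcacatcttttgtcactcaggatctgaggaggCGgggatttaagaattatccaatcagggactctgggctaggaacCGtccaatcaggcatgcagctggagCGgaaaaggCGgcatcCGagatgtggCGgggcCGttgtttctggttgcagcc
ACSM2A (chr16:20462583-20462782, plus strand): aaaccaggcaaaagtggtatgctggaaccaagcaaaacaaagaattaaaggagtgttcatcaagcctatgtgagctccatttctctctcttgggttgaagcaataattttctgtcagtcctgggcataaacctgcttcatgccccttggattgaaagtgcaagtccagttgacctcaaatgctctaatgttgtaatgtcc
The upstream bases of GTF2IRD2B hold 16 CG, those of ZNF726 and ZNF729 hold 10 and 11, and those of ACSM2A hold none. None of the 4 overlaps an annotated gene. Over 20094 protein-coding genes, 95.1% of the 200 upstream bases hold a CG, with a mean of 12.7.

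Of the 28422 windows, 2633 were 20 points or more higher in xChIP (9.26%) and 3269 were 20 points or more higher in xxChIP (11.5%). The other 22520 windows (79.2%) differed by less. Counts higher in xChIP and in xxChIP were 663 and 902 with peak centres in place of covered bases. With 1-Mb windows they were 108 and 77, so that the balance turned toward xChIP. Mean coverage was 16.3% (SD over windows 11.4) for xChIP and 17.2% (SD 12.8) for xxChIP. A coverage of 50% or more was reached in 492 windows by xChIP and in 557 by xxChIP, and in 46 by both. Peaks of both lists shared 89.5 Mb, which is 19.4% of the bases of the xChIP list and 18.4% of those of the xxChIP list. This is 3.16% of known bases, and the product of the shares of the lists is 2.80%. The correlation of the lists over all windows was r = -0.0416 (n = 28422 windows, and 0.00823 with peak centres in place of covered bases), a description over windows that share lists and neighbours. Within chromosomes r was below 0 on 17 of 23, from -0.258 on chromosome 20 to 0.141 on chromosome 16. Among 10 equal groups of windows by GC it was highest in group 3 from the lowest GC (0.175) and lowest in group 9 (-0.181). The differences nearest to the limit of 20 points were 20.005 inside and 19.993 outside on the xChIP side, and -20 inside and -19.998 outside on the xxChIP side.

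**Figure D1:**
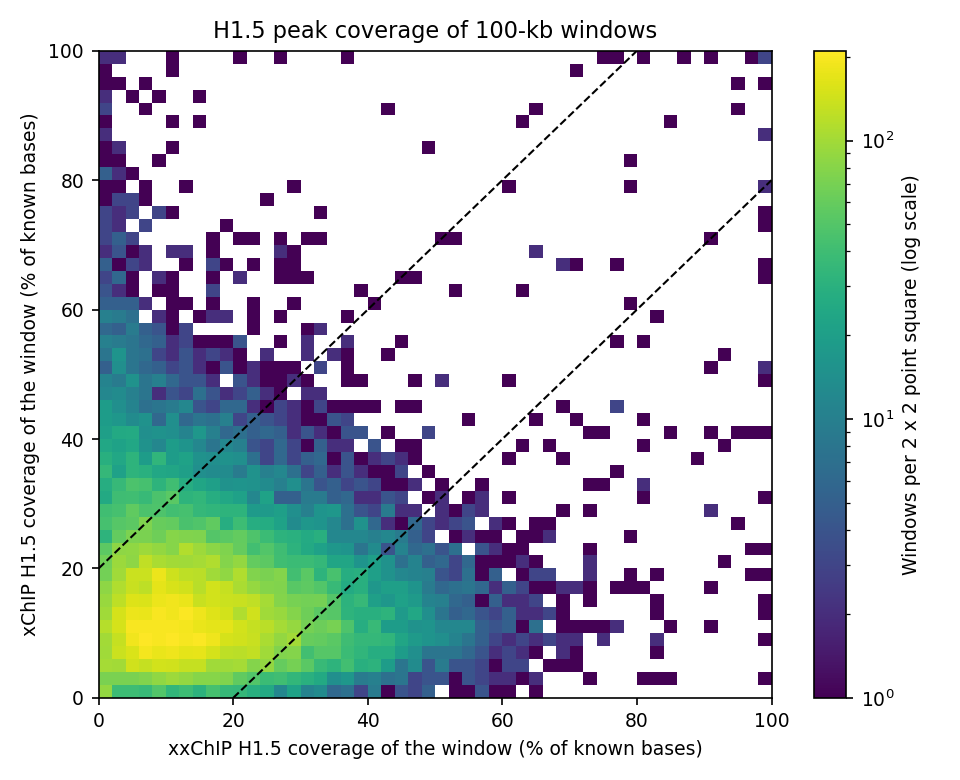
Coverage of each 100-kb window by xChIP H1.5 peaks (vertical, % of known bases) against xxChIP H1.5 peaks (horizontal, % of known bases), with the number of windows per square in colour on a log scale. Dashed lines mark a difference of 20 points; the 2633 windows above the upper line and the 3269 windows below the lower line spread along the axes, and 46 windows are at 50% or more in both lists.

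The window with the largest difference toward xChIP, chr3:195800001-195900000, holds the start of TFRC, the gene of the transferrin receptor for iron uptake. Its xChIP coverage was 100% and its xxChIP coverage 1.36%, and the xChIP bases belonged to a single peak of 120103 bp. The next window, chr15:41600001-41700000, holds NUSAP1, a gene of the mitotic spindle, and OIP5, a gene of centromere assembly, and had 99.5% against 1.04%. A window at PIK3CB, the gene of a catalytic subunit of phosphoinositide 3-kinase, had 92.8% against 0%. A window of chromosome 6 with CGAS, which encodes the sensor of DNA in the cytosol, the translation factor gene EEF1A1 and 3 other protein-coding genes had 94.1% against 1.90%. A window of chromosome 12 had 92.3% against 1.19% and contains SP1, which encodes a transcription factor that binds GC-rich promoters, and the nucleoporin gene AAAS.

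Chromosome 7 gave 4 of the 10 leading xChIP windows. The window with EPO, which encodes the hormone erythropoietin, together with POP7 and ZAN was covered to 96.4% by xChIP and 1.34% by xxChIP. That with the chemokine genes CCL24 and CCL26 was covered to 95.6% and 2.54%. The other chromosome 7 windows, at GTF2IRD2B (91.2% and 0%) and at the pseudogenes NCF1B and GTF2IP4 (100% and 2.13%), lie in segments that occur more than once in the genome. In these windows 90.2% and 88.4% of sampled 50-base words were found elsewhere in the reference, and in a window of REXO1L pseudogenes on chromosome 8 (99.1% and 3.14%) it was 97.5%. Peaks were called from uniquely mappable reads, so copies of such segments may not be equally visible, and the part of this in the difference was not tested. All 10 leading xChIP windows had 10% or more of such words. Over the 10 windows there were 18 protein-coding gene starts, 8 windows held at least 1, and GC content ranged from 43.1% to 52.3%.

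None of the 10 leading windows toward xxChIP contains a protein-coding gene, and 34.0% of all windows have no protein-coding gene base. Of the 10, 8 lie within 5 Mb of a centromere gap in the assembly, compared with 7.10% of all windows. Over all differing windows, 4.37% of those higher in xChIP and 4.28% of those higher in xxChIP lie within 2 Mb of a centromere gap, compared with 2.82% of all windows. Within 2 Mb of a chromosome end lie 4.94% and 1.90%, compared with 2.78% of all. The largest difference was at chr16:32500001-32600000, with 3.93% in xChIP and 100% in xxChIP under a single peak of 151625 bp. Windows of chromosome 19 at 24400001 (12.0% and 100%), chromosome 8 at 43600001 (3.37% and 81.9%) and chromosome 16 at 35100001 (3.13% and 82.9%) follow the same pattern beside their centromeres. A window in CCDC26, a long noncoding RNA gene of chromosome 8 far from the centromere, had 9.96% and 100%. It lies in a part of chromosome 8 that also has windows without a peak of either list, and copy number there was not analysed. The last of the 10 lies 0.504 Mb from the end of chromosome 4 and holds the noncoding FRG1-DT, with 18.9% and 96.7%. GC content of these windows was lower, from 36.8% to 43.6%. In 5 of the 10, 10% or more of the 50-base words recur elsewhere, up to 63.8% in a window of chromosome 1. Most of the 10 leading windows of each set reversed without peaks of 20 kb or more, including that at chr16:32500001-32600000 (3.93 points).

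The lists of the other linker histone variant mapped, H1.2, were not used to choose these windows, although the comparisons of both variants share the Input samples of each protocol. In the 10 xChIP windows, xChIP H1.2 coverage was between 71.6% and 100% and xxChIP H1.2 coverage between 0% and 7.28%. In the 10 xxChIP windows, xChIP H1.2 coverage was between 1.03% and 56.9% and xxChIP H1.2 coverage between 36.6% and 100%. Over all 2633 windows higher in xChIP, mean coverage was 39.3% and 6.82% for H1.5 (xChIP and xxChIP) and 63.9% and 10.5% for H1.2. Over the 3269 windows higher in xxChIP, it was 10.2% and 40.4% for H1.5 and 11.9% and 38.9% for H1.2. Over all windows, mean H1.2 coverage was 26.4% (xChIP) and 20.2% (xxChIP). The mean of xChIP minus xxChIP for H1.2 was 53.4 points in the former set and -27.0 in the latter, a difference of 80.3 points between the sets. With the sets chosen anew, this difference was 21.8 points without peaks of 20 kb or more. It was 9.36 points with peak centres in place of covered bases.

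A small group of windows was high in both lists. In 46 windows each list covered 50% or more, and 42 of these (91.3%) lie within 5 Mb of a centromere gap, compared with 7.10% of all windows. Chromosome 7 holds 14 of them, between 57900001 and 65000000 on both sides of its centromere. The H1.2 lists covered the 46 windows to 71.1% (xChIP) and 83.9% (xxChIP), compared with 26.4% and 20.2% over all windows. The median share of repeated 50-base words in the 46 windows was 16.7%, compared with 5.00% over all windows. The part of repeated sequence in this coverage was not tested. In contrast, 45 windows had no H1.5 peak of either protocol, and 21 of them are on chromosome X and 13 on chromosome 8, between 126000001 and 131000000. The copy number of these regions in HL-60/S4 was not analysed here.

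Differences extended beyond single windows. The difference of a window and that of its neighbour 100 kb away were related with r = 0.444 (n = 28316 pairs of the same lists), which fell to r = 0.179 at 1000 kb and r = 0.0327 at 5000 kb. Runs of 3 or more touching windows numbered 220 toward xChIP and 214 toward xxChIP. The longest run toward xChIP spanned 2100 kb and the longest toward xxChIP 900 kb. Most differing windows were not in such runs, which held 33.8% of the windows higher in xChIP and 23.2% of those higher in xxChIP, and 46.9% and 52.6% stood alone.

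The longest xChIP locus, chr12:120500001-122600000, contains 42 protein-coding gene starts and was covered to 46.9% by xChIP and 3.89% by xxChIP. Among its genes are KDM2B and SETD1B, which encode a histone demethylase and a histone methyltransferase, RPLP0 of the ribosome, the receptor gene P2RX7 and the calcium channel gene ORAI1. H1.2 coverage there was 85.7% in xChIP and 6.53% in xxChIP. A second chromosome 12 locus, chr12:56100001-57200000, holds 53 gene starts, including the cell cycle kinase gene CDK2, the interferon signalling gene STAT2 and the chromatin remodeller gene SMARCC2, and had 47.8% and 4.36%. Per window, both loci hold more gene starts than the mean of 0.706 over all windows.

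The other 4 xChIP loci are on chromosome 7. The locus chr7:72200001-73300000, which holds part of the region deleted in Williams syndrome, with the chromatin remodeller gene BAZ1B, the glucose-responsive factor gene MLXIPL, the claudin genes CLDN3 and CLDN4 and the syntaxin gene STX1A, was covered to 62.3% by xChIP and 2.37% by xxChIP. The locus chr7:74800001-75700000, with HIP1, POR and MDH2, had the highest xChIP coverage of the 6, 72.4% against 2.99%. The locus with the replication helicase gene MCM7, chr7:99600001-100600000, holds 47 gene starts and had 58.5% and 3.11%. The locus with the homeobox gene CUX1, chr7:101600001-102500000, had 50.1% and 4.25%. Repeated 50-base words made up 38.1%, 39.1%, 12.8% and 36.4% of these loci in the order given and 8.76% and 8.73% of those of chromosome 12, compared with a mean of 7.72% over all windows. The part of repeated sequence in these differences was not tested.

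The loci toward xxChIP span 700 to 900 kb and are nearly empty of protein-coding genes. The longest, chr7:125000001-125900000, has no protein-coding gene and 34.7% GC, and was covered to 15.3% by xChIP and 48.8% by xxChIP. The locus chr8:126700001-127400000 had the largest difference of the 6, with 21.5% and 74.0%, and lies in the part of chromosome 8 that also has windows without a peak of either list. Loci of chromosome 17 (7.95% and 41.5%), chromosome 1 (13.2% and 45.6%) and chromosome 5 (7.05% and 36.9%) hold no protein-coding gene either. The last, chr7:123600001-124300000, holds the gene starts of TMEM229A and SSU72L6 and part of SPAM1, a sperm hyaluronidase gene, and had 12.0% and 41.5%. H1.2 coverage of the 6 loci was 3.79% to 22.7% in xChIP and 39.5% to 89.4% in xxChIP.

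**Figure D2:**
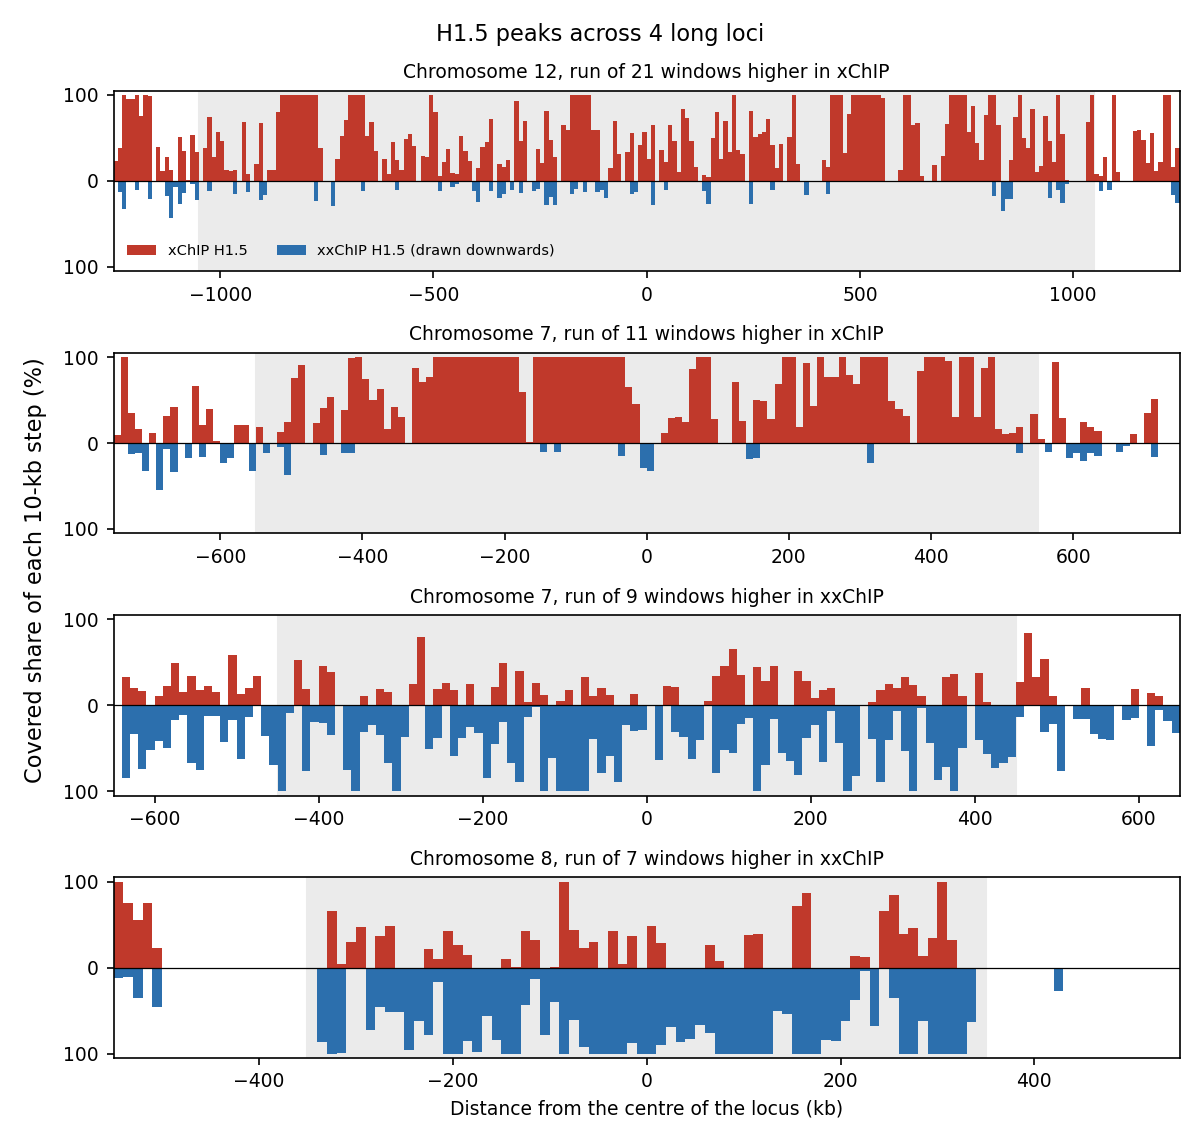
Share of each 10-kb step covered by xChIP H1.5 peaks (upwards, %) and xxChIP H1.5 peaks (drawn downwards, %) across the 2 longest loci toward each protocol, against distance from the centre of the locus in kb. Grey marks the locus and white the 200 kb on each side; the chromosome 12 and 7 loci at the top have few xxChIP peaks along their whole length, and directly beside the chromosome 8 locus at the bottom are steps without a peak of either list.

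Among 20098 protein-coding genes, 3384 (16.8%) had a gene body covered 20 points or more higher by xChIP and 1123 (5.59%) 20 points or more higher by xxChIP. Of genes of 30 kb or more, those leading toward xChIP were CGAS, SPDYE10, GTF2IRD2B, RASA4B, RABEPK and SP1, each with 100% in xChIP and 0% in xxChIP. BRI3BP (99.6% and 0%), the radial spoke gene RSPH10B2 (98.3% and 0%), NUSAP1 (100% and 1.72%) and ZAN (94.4% and 0%) came next. IPP (98.9% and 6.28%) and IRAK2, a kinase gene of interleukin-1 receptor signalling (98.6% and 6.21%), completed the 12. These genes were covered to 96.6% or more by xChIP H1.2 and to 12.1% or less by xxChIP H1.2. In SPDYE10, GTF2IRD2B, RASA4B and RSPH10B2, 97.7%, 89.2%, 90.5% and 87.2% of 50-base words occur elsewhere, whereas in CGAS, SP1 and IRAK2 it was 11.9%, 13.2% and 10.2%. In 11 of the 12 genes, 10% or more of the words recur.

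Of the 12 genes leading toward xxChIP, 5 lie on chromosome 19, and 4 of these are zinc finger genes. ZNF726 was covered to 4.94% by xChIP and 86.5% by xxChIP, ZNF729 to 9.89% and 89.5%, ZNF626 to 9.50% and 87.7%, and ZNF320 to 0% and 63.1%. The fifth gene of chromosome 19, EDDM13, had 0% and 67.6%. ACSM2A had 0% and 78.6%, UGT2B4, a bile acid glucuronidation gene of the liver, 2.21% and 66.7%, and SPAM1 7.56% and 66.3%. The set also holds TMCO5A (19.7% and 78.8%), POTEH (4.02% and 69.1%), FPGT (6.63% and 66.7%) and an unnamed protein-coding gene of chromosome 1 (0% and 71.6%). Median gene GC was 38.2%, compared with 47.4% in the 12 xChIP genes, and 4 of the 12 had 10% or more repeated words.

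Single long peaks carried many of the named values. With peaks of 20 kb or more left out of both lists, 28 of the 56 named windows, loci and genes kept their direction, 9 of them by 20 points or more, 8 stood at 0 and 20 reversed. All 12 loci kept the sign of their difference, but only the longest chromosome 12 locus (22.3 points) and the chromosome 5 locus (-21.1 points) stayed past 20 points. The chromosome 8 locus went from -52.6 to -1.52 points, the locus with HIP1 from 69.4 to 6.43, and that with BAZ1B from 60.0 to 10.9. Genes that stayed past 20 points were ACSM2A (-78.6 points), EDDM13 (-67.6), ZNF320 (-63.1), SPAM1 (-58.7) and POTEH (-34.8). Genes such as CGAS, SP1 and RABEPK, covered only by xChIP peaks of this length, went to 0. Over all windows the dependence was weaker, since 1723 of the 2633 windows higher in xChIP and 2125 of the 3269 higher in xxChIP also passed 20 points without those peaks. Peaks of 20 kb or more held 33.3% of xChIP peak bases in the windows higher in xChIP and 28.9% of xxChIP peak bases in the windows higher in xxChIP, compared with about 10.0% and 10.2% over all windows.

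What the windows share beside their H1.5 coverage is base composition and gene content. Windows higher in xChIP had a mean GC content of 43.9% (SD 5.22) and those higher in xxChIP 38.7% (SD 3.84), with 40.9% over all windows. The ratio of observed to expected CpG was 0.271 and 0.189. Windows higher in xChIP held 1.42 protein-coding gene starts on average and those higher in xxChIP 0.277. No gene start was present in 36.7% of the former (95% Wilson interval 34.8% to 38.5%, for counting error only) and in 82.3% of the latter (81.0% to 83.6%), compared with 62.0% of all windows. The windows toward xChIP are thus on average GC-richer, CpG-richer and denser in genes than the genome, and those toward xxChIP are on average the reverse.

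The change across composition came mostly from the xxChIP list. When windows were ranked by GC and divided into 10 equal groups, then from the lowest group to the highest mean xxChIP coverage fell from 25.4% to 8.70%, while mean xChIP coverage went from 15.1% to 17.6%. Over 10 groups ranked by CpG ratio, xxChIP fell from 24.4% to 7.44% and xChIP went from 15.8% to 21.5%. In the group of highest CpG ratio, 28.6% of windows were higher in xChIP by 20 points and 1.58% higher in xxChIP. In windows without a gene start the means were 15.4% for xChIP and 20.1% for xxChIP, and with 5 or more gene starts they were 18.9% and 7.12%. The lists crossed at intermediate GC and between 0 and 1 gene starts, so that neither list had the higher coverage everywhere. The correlation with CpG ratio over windows was 0.155 for xChIP and -0.410 for xxChIP (n = 28422 windows of the same lists).

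**Figure D3:**
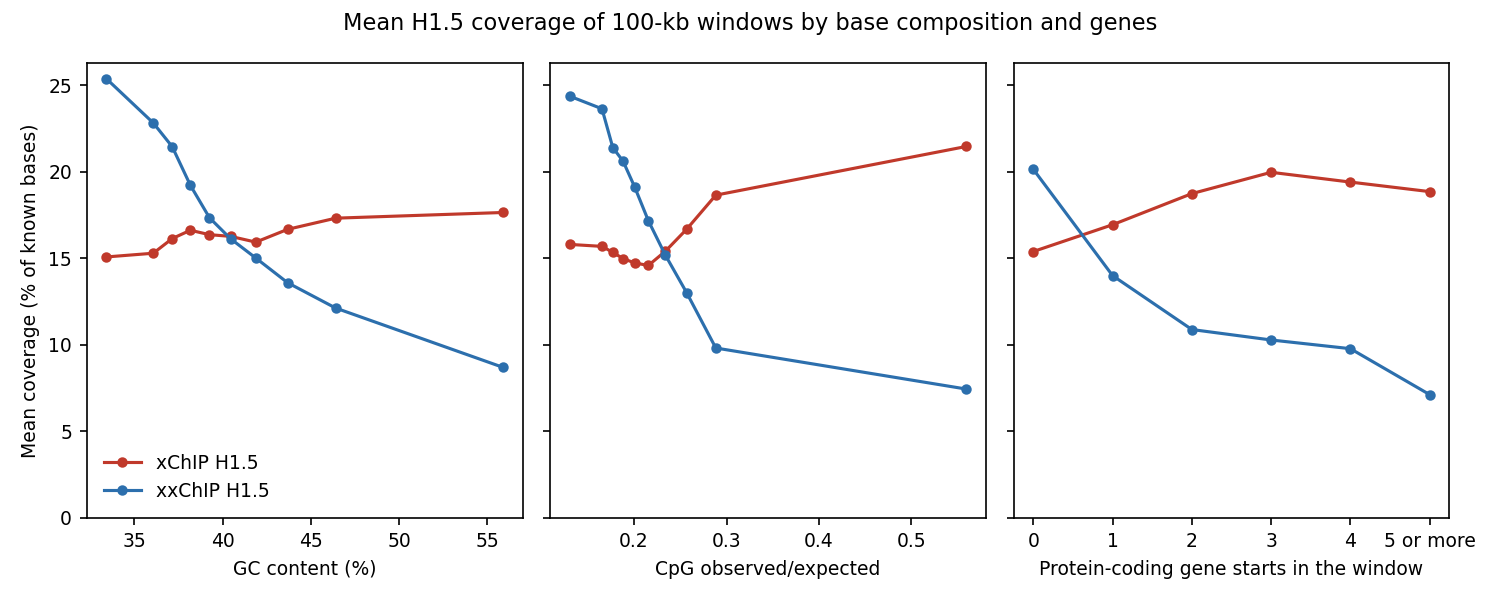
Mean coverage of 100-kb windows by xChIP H1.5 (red) and xxChIP H1.5 (blue) peaks, in % of known bases, for 10 equal groups of windows by GC content and by observed over expected CpG (each point at the middle of its range), and by the number of protein-coding gene starts. The blue line falls from 25.4% to 8.70% over GC, and the red line stays between 15.1% and 17.6%.

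Repeated sequence also differed between the sets. In windows higher in xChIP, 14.4% of 50-base words on average (median 9.20%) occur elsewhere in the reference, and in windows higher in xxChIP 5.16% (median 3.00%), compared with 7.72% (median 5.00%) over all windows. Of the windows higher in xChIP, 43.3% had 10% or more repeated words, compared with 14.5% of all windows. Of the windows higher in xxChIP, 6.21% had as many.

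The contrast in composition was found on each chromosome. On 23 of 23 chromosomes the windows higher in xChIP had a higher mean GC content and more gene starts than those higher in xxChIP. The difference in GC ranged from 3.30 points on chromosome X to 9.55 points on chromosome 19. Mean coverage did not favour 1 protocol everywhere, with xChIP higher on 10 chromosomes and lower on 13. Chromosome 16 had the lowest xChIP mean, 7.67% against 11.4% for xxChIP, and only 6 windows higher in xChIP compared with 77 higher in xxChIP. Chromosomes 10 (29 and 138 windows), 19 (29 and 115) and 18 (23 and 92) were also one-sided. Chromosomes 17 (19 and 57), 2 (94 and 262) and X (35 and 96) leaned the same way. On chromosome 21, where xChIP exceeded xxChIP by most (2.75 points), 36 windows were higher in xChIP and 16 in xxChIP. Chromosome 7 was balanced, with 224 and 240 windows, although it holds the largest group of leading xChIP loci.

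**Figure D4:**
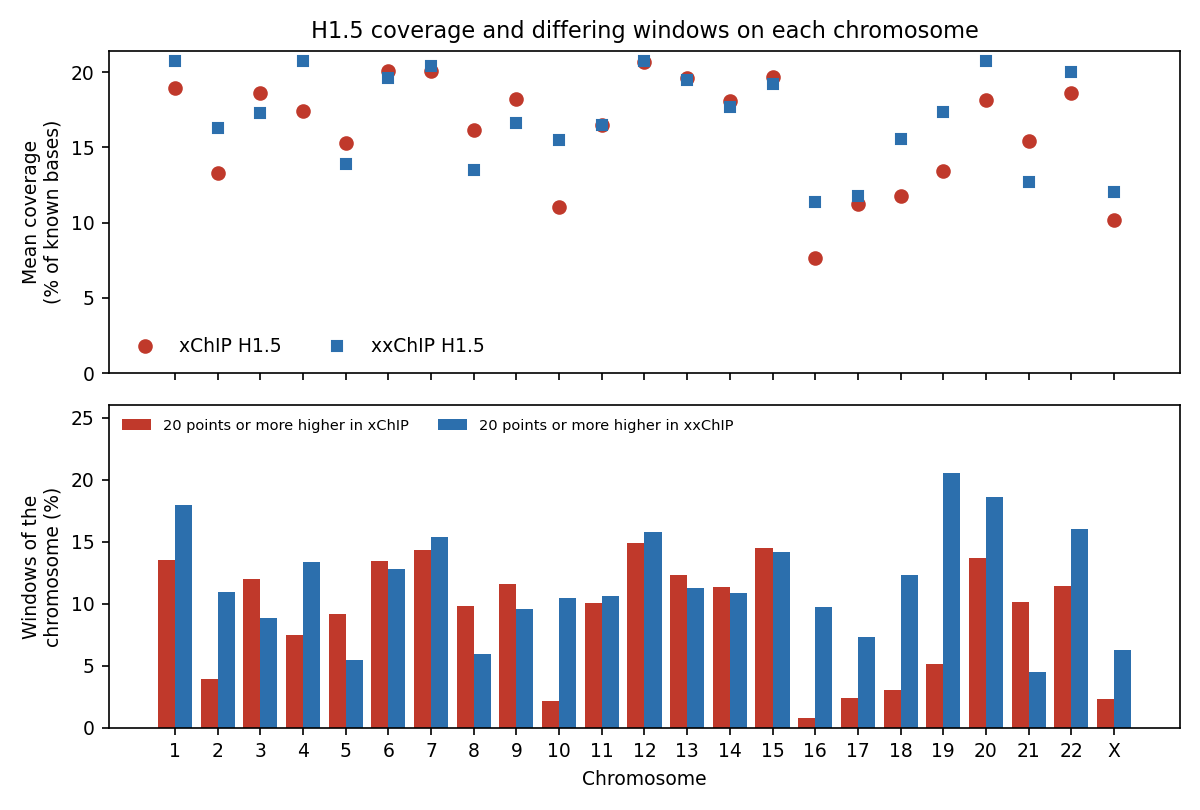
Mean coverage of the windows of each chromosome (top, % of known bases) by xChIP H1.5 (circles) and xxChIP H1.5 (squares), and the share of the windows of each chromosome that were 20 points or more higher in xChIP or in xxChIP (bottom, %). Chromosome 16 stands lowest in xChIP at 7.67%, and chromosome 19 has the largest share of windows higher in xxChIP, 20.6%.

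Gene length separated the protocols too. Mean gene-body coverage was 15.5% by xChIP and 7.04% by xxChIP for genes of 10 to 30 kb, and 17.0% and 9.84% for those of 30 to 100 kb. For the 824 genes of 300 kb or more the order changed, with 13.7% and 17.1%. Genes 20 points or more higher in xxChIP made up 3.88% of these and 7.20% of genes under 10 kb, the largest share of the length classes. A list of 30 long genes, most of which encode adhesion molecules and receptors of neurons, has a median length of 1354 kb. All 30 were covered less by xChIP than by xxChIP, with medians of 12.2% and 20.9% and a median difference of -9.09 points (-8.18 with the lists scaled to equal means). CNTN6, a neuronal contactin gene, was the only 1 past 20 points (6.75% and 27.1%), and with the lists scaled to equal means it was no longer past them. The share of the list past 20 points toward xxChIP, 3.33%, was near the 3.88% of all genes of 300 kb or more. How many of the 824 genes of that length were covered less by xChIP is not given here. The glutamate receptor gene GRIK2 had 14.7% and 32.3%, and MACROD2, which encodes an ADP-ribosylhydrolase, 12.1% and 28.5%.

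Gene groups of known function fell on both sides of the background of 16.8% and 5.59%. The median difference was 0.107 points over all protein-coding genes and between 0 and 1.15 points in each list but the zinc finger and long neuronal lists. Cytosolic ribosomal protein genes, which are short and active in nearly all cells, stood out toward xChIP, with 32 of 86 (37.2%) higher in xChIP and 0 higher in xxChIP. RPL35A, RPS26 and RPS25 were each covered to 100% by xChIP and 0% by xxChIP, and the gene nearest to a call in the other direction was RPS24 (0% and 16.9%). Zinc finger genes of chromosome 19, most of which encode DNA-binding repressors, went the other way, with 14 of 246 (5.69%) higher in xChIP and 71 (28.9%) higher in xxChIP, and a median difference of -6.88 points. Chromosome 19 as a whole leaned the same way, with 5.19% of its windows higher in xChIP and 20.6% higher in xxChIP. ZNF829 (0% and 95.1%) and ZNF441 (0% and 82.8%) were furthest toward xxChIP, and ZNF844 (60.7% and 0%) toward xChIP. Genes best known from hair, skin and the olfactory epithelium also leaned toward xxChIP. Of 149 keratin and keratin-associated protein genes, 7 were higher in xChIP and 32 in xxChIP (21.5%), and of 399 olfactory receptor genes 42 and 85 (21.3%). The genes of these 2 lists are short (medians 1.16 and 1.87 kb), and of all genes under 10 kb 7.20% were higher in xxChIP. How often neighbouring genes of a list share a peak was not counted. Without peaks of 20 kb or more, the median of the zinc finger genes was -2.00 points. These directions held with the lists scaled to equal means, where the counts were 32 and 0, 14 and 67, 7 and 31, and 42 and 81.

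Small lists tied to blood cells and to metabolism are given here, and their counts can be set beside the shares of 16.8% and 5.59% over all genes. Of 20 granule protein genes 1 was higher in xChIP, LYZ, which encodes lysozyme (65.9% and 19.3%), and of 20 myeloid transcription factor genes 1 was, SPI1, which encodes the factor PU.1 (76.4% and 12.0%). Neither group had a gene higher in xxChIP by 20 points. Of 12 NADPH oxidase and integrin genes, 3 were higher in xChIP (25.0%) and 1 in xxChIP (8.33%). NCF1, a subunit gene of the phagocyte oxidase with near-identical pseudogenes, had 100% and 0%, the integrin gene ITGAL 20.6% and 0%, and the GTPase gene RAC2 10.4% and 39.4%. Of 20 T cell and B cell marker genes, 2 were higher in xChIP, CD8B (23.8% and 0%) and CD3G (34.6% and 11.6%), and 1 in xxChIP, FCER2 (0% and 44.5%). Of 18 glycolysis genes 1 was higher in xChIP, ALDOC (26.5% and 0%), and none in xxChIP.

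Genes of the nucleus itself were compared in the same way. The gene of H1.5, H1-5, had no H1.5 peak over its body in either list, and of 10 linker histone genes only the oocyte variant H1-8 was covered (21.0% in xChIP and 0% in xxChIP). H1.2 peaks of xChIP nevertheless covered H1-5 fully (100%), with 0% in xxChIP. The share of linker histone genes higher in xChIP was 10.0%, compared with 16.8% of all protein-coding genes. These genes are short (median 0.792 kb), and of all 20098 protein-coding genes 4462 had no H1.5 peak of either list. Of 58 core histone genes, 9 were higher in xChIP, among them H3C3 and H2AC12 (each 100% and 0%), and 2 in xxChIP, H2AC1 (0% and 63.3%) and H2BC26 (0% and 23.7%). Of 13 nuclear lamina and envelope genes, 3 were higher in xChIP and none in xxChIP. They were TMPO (49.4% and 0%), LMNA, which encodes lamins A and C (44.4% and 4.67%), and SUN1 (35.5% and 3.42%). Groups arranged in clusters gave mixed values, with 4 of 39 HOX genes higher in xChIP and 1 in xxChIP, 11 and 4 of 53 clustered protocadherin genes, 4 and 1 of 19 MHC genes, and 3 and 1 of 17 type I interferon genes. Shares of core histone (15.5% and 3.45%), interferon (17.6% and 5.88%) and MHC genes (21.1% and 5.26%) were near those over all genes, 16.8% and 5.59%. Those of lamina and envelope (23.1% and 0%), HOX (10.3% and 2.56%) and protocadherin genes (20.8% and 7.55%) come from lists of 53 genes or fewer. Some protocadherin gene bodies overlap, as those of PCDHGA11 and PCDHGA12 do, so the same peak can count in several of these genes. In the 100-kb windows at the middle of the genes, the protocadherin and MHC medians lay toward xxChIP instead (-7.02 and -7.63 points, compared with 5.72 over all protein-coding genes). Within the interferon cluster the single-exon genes IFNB1 and IFNA2 had 100% and 0%, and IFNA1 0% and 100%, and each of these genes is 1.14 kb or shorter.

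**Figure D5:**
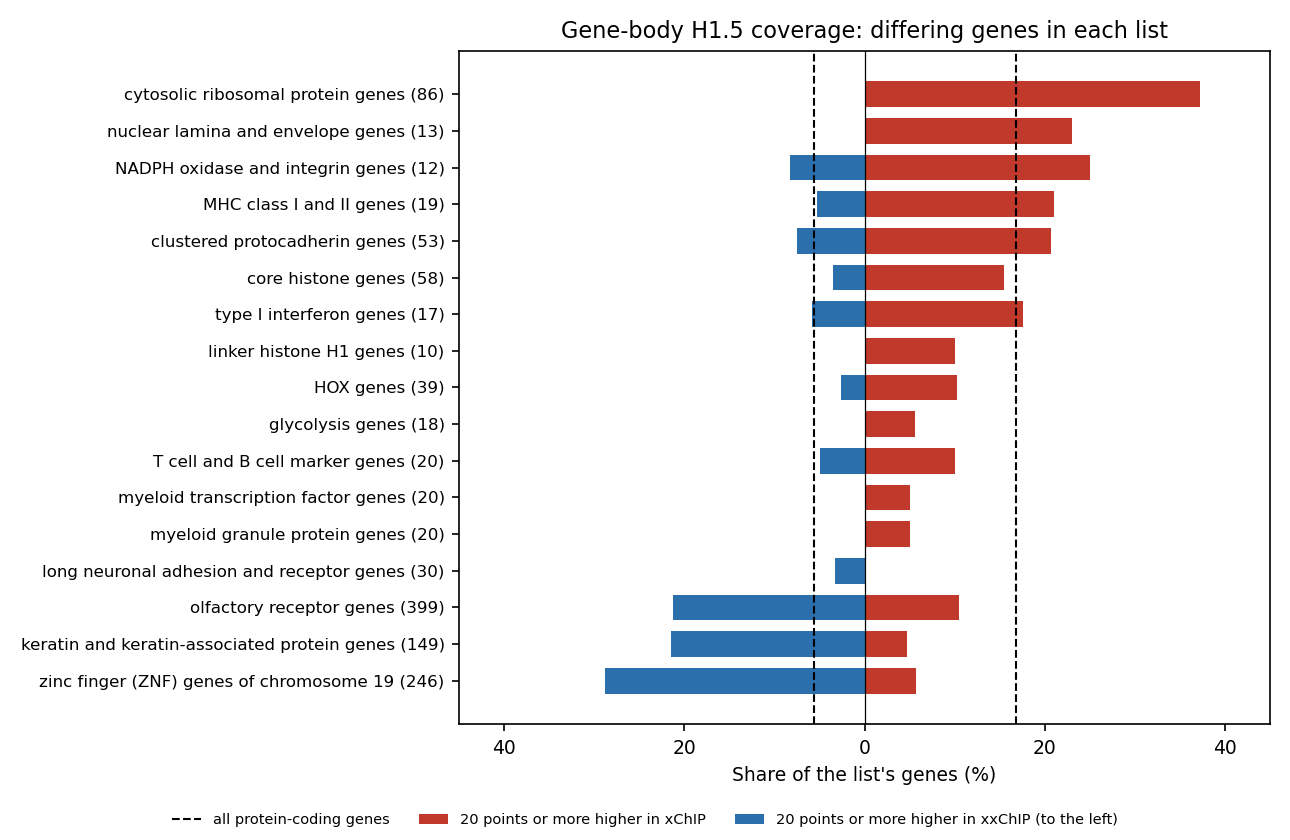
Share of the genes of each list (number of genes in parentheses) whose body coverage was 20 points or more higher in xChIP H1.5 (red, to the right, %) or in xxChIP H1.5 (blue, to the left, %). Dashed lines mark all protein-coding genes, 16.8% and 5.59%; cytosolic ribosomal protein genes reach 37.2% to the right and zinc finger genes of chromosome 19 reach 28.9% to the left.

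At promoters, taken as 1000 bp on each side of the gene start, the balance favoured xChIP. A peak of xChIP alone was present at 3966 of 20098 promoters (19.7%, 95% Wilson interval 19.2% to 20.3%) and a peak of xxChIP alone at 1211 (6.03%, 5.70% to 6.36%). These intervals are for counting error only. Peaks of both lists met at 381 promoters, and 14540 had neither. When 50% of the promoter had to be covered, 1960 had an xChIP peak alone and 623 an xxChIP peak alone. Of promoters with an xChIP peak alone, 55.8% were CpG-rich (observed over expected CpG of 0.6 or more), close to the 51.9% of all promoters, while of those with an xxChIP peak alone 20.0% were. Mean promoter GC was 54.3% and 48.0%. Most promoters that xxChIP alone marked were thus CpG-poor, as at ACSM2A (0.101), although those of POTEH (0.699) and ZNF726 (0.625) were not. Of promoters with peaks of both lists 18.1% were CpG-rich, and of those with neither 54.3%. A low CpG ratio was therefore not particular to promoters with an xxChIP peak alone.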

How the data were processed

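Peak positions (unit other) were used as deposited. To make them, the authors mapped read pairs on hg19 by Bowtie2 and accepted unique alignments only, then ran MUSIC for peak calling and merged the peaks of the 3 replicates. Versions of both tools are not given in the sources used here. Genes came from GENCODE lifted to GRCh37, the sequence of hg19. Covered bases were divided by known bases of each window, gene body or promoter (1000 bp on each side of the start, overlap from 1 bp). A difference of 20 points counted as a call; no test was possible. Repeated words are 50-base words, sampled every 200 bp, found elsewhere in the assembly on either strand, a measure added after seeing the data because the reference does not mark repeats. Named were the 10 windows, the 6 longest runs of 3 or more touching windows and the 12 genes of 30 kb or more (1 Mb apart) with the largest differences each way, and in each list the extreme members and all linker histone genes. Windows high in both lists or in neither were added after their values were seen. Some genes and sequences that these rules take are not reported here. Members and lists were chosen with earlier results of these data known. The coverage and correlation steps were tested on simulated data, and the other steps were not. Python 3.11.15, numpy 2.4.6, scipy 1.17.1 and matplotlib 3.10.9 were used.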

Additional observations from a re-analysis of the deposited data

How the results depend on the processing

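Coverage was recomputed with other window sizes, another window grid, 90% known sequence, lists scaled to equal means, peak centres in place of covered bases, peaks under 1000 bp or of 20 kb or more left out, limits of 10 and 30 points, and autosomes alone. Values were taken as moved when they changed by more than 1 SD over 23 chromosomes, and counts by more than 1.5 times. No paired analysis was possible because each list merges its 3 replicates, and for the same reason no replicate could be left out. On average, windows higher in xChIP were GC-richer and gene-richer than those higher in xxChIP under each of the 12 alternatives. Scaling the lists or leaving out peaks under 1000 bp left all 56 named windows, loci and genes past 20 points in their direction. Both settings move coverage little, as at CGAS, where 100 points became 103 with scaling and stayed 100 without short peaks. They are therefore no test of how stable these differences are.

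Windows higher in xChIP and in xxChIP numbered 7084 and 8550 with 50-kb windows, 1018 and 1221 with 200-kb windows, 108 and 77 with 1-Mb windows, 6280 and 7636 at 10 points, 1125 and 1280 at 30 points, and 663 and 902 with peak centres. Gene starts per window, which are not scaled to window length, differed between the sets by 0.451, 2.81 and 16.1 with windows of 50 kb, 200 kb and 1 Mb. GC content differed by 7.47 points with 1-Mb windows. The sets differed in xChIP minus xxChIP of H1.2 by 80.3 points as reported. With the sets chosen anew in each setting, it was 58.0 at 10 points, 99.8 at 30 points, 9.36 with peak centres and 21.8 without peaks of 20 kb or more. With peak centres the correlation of the lists over windows was 0.00823 in place of -0.0416. The cause was not tested.

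Promoters with an xChIP peak alone and an xxChIP peak alone numbered 1960 and 623 when 50% of the promoter had to be covered, and those with an xxChIP peak alone 2293 within 2500 bp of the start. Taking the 100-kb window at the middle of each gene in place of the gene body, median differences were 6.17 points for linker histone genes, 8.57 for core histone, 13.9 for ribosomal protein, 10.3 for glycolysis, 8.27 for myeloid granule, 4.37 for myeloid transcription factor, 6.33 for NADPH oxidase and integrin, 6.74 for lamina and envelope and 8.44 for T cell and B cell marker genes, and 5.72 over all protein-coding genes. They were -3.85 for olfactory receptor, -7.02 for protocadherin, -11.0 for keratin and -7.63 for MHC genes. Without peaks of 20 kb or more the median of zinc finger genes of chromosome 19 was -2.00. The cause was not tested.

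Without peaks of 20 kb or more, differences reversed at NUSAP1 (-1.72 points), IPP (-6.28), IRAK2 (-6.21), ZNF729 (9.89), FPGT (0.396) and TMCO5A (16.7). They reversed in the leading xChIP windows at TFRC (-1.36), NCF1B (-2.13), the REXO1L pseudogenes (-3.14), CCL26 (-2.54), CGAS (-0.408) and SP1 (-1.19). In the leading xxChIP windows they reversed on chromosome 16 (3.93 and 2.06), in CCDC26 (9.96), and on chromosomes 19 (12.0), 1 (14.7), 17 (2.92), 20 (18.1) and 4 (18.9). Each of these values rested on a peak that this setting removes. Peak lists without scores or read numbers limit all values, and a window without a peak may be one of low depth.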
